A study of Homo sapiens with 12 samples.

Results

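The genes described here are 9 genes of major histocompatibility complex (MHC) class I antigen presentation, namely HLA-B, HLA-C, HLA-E, B2M, TAP1, TAP2, TAPBP, PSMB8 and PSMB9. They were chosen by symbol, and all 9 were found, with 1 entry each, among the 12451 entries of the RNA-seq table. The table covers MDA-MB-231-ERβ cells, a triple negative breast cancer line that makes full length ERβ when doxycycline (dox) is added. Cells were plated with dox and treated with ethanol vehicle or 1 nM estradiol (E2) for 5 days, with a refresh on day 3, and 20 ng/ml TNFα was present for the final 3 h in some dishes. This gave 4 groups of 3 libraries: vehicle, TNFα (vehicle and TNFα), E2, and E2+ TNFα. Dox is named in the labels of vehicle, TNFα and E2 libraries and is taken from the study's methods for E2+ TNFα. All groups therefore carried the same transgene and inducer, and no library without ERβ induction was analysed here. Whether the line is a single clone is not given in the sources used here. The replicates are dishes of 1 line, so p-values measure the spread between dishes.

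MHC class I molecules sit on nearly all nucleated cells and show peptides from the cell's own proteins to CD8+ T cells and natural killer cells. The proteasome cuts proteins into peptides, and its immunoproteasome form carries PSMB8 and PSMB9 in place of PSMB5 and PSMB6. TAP1 and TAP2 form the transporter that moves peptides into the endoplasmic reticulum, where tapasin (TAPBP) holds the transporter and helps load a heavy chain (HLA-B, HLA-C or HLA-E) that is paired with β2-microglobulin (B2M). Many of these genes are known targets of interferon, in part through IRF1, of the activator NLRC5, and of NFκB/p65, the pathway that TNFα activates and that the study asked about in relation to ERβ.

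The vehicle libraries stood apart from the 9 others. The first principal component of log2 CPM (counts per M reads after TMM scaling, M standing for mega) held 71.9% of the variance, with vehicle libraries at -107 to -89.2 and all others at 12.1 to 61.6. Exon GC content and the log2 fold change of TNFα relative to vehicle had a Spearman correlation of 0.706 across genes, which are not independent replicates. For E2+ TNFα the correlation was -0.21 relative to TNFα and -0.33 relative to E2, so weaker trends remained there. Any batch that held only vehicle libraries and the vehicle treatment itself cannot be told apart. The comparisons of E2+ TNFα with TNFα and with E2 contrast no vehicle library and come first. Their scaling and estimate of spread still come from the fit of all groups, vehicle included. Changes relative to vehicle are given with and without removal of each library's trends with GC content and length. Assigned reads were 7.65 to 39.9 M per library, with the E2 group the shallowest. ESR2, which encodes ERβ, averaged 471 ± 14.9 CPM (SD, n = 3) with vehicle, 254.5 ± 26.7 in TNFα, 306 ± 14.7 in E2 and 448 ± 53.2 in E2+ TNFα. Of the markers of this mesenchymal-like line, VIM averaged 1156 to 1545 CPM by group, and CD44, CAV1 and EGFR were present, while the epithelial marker CDH1 averaged 3.14 in vehicle and 41.0 in E2. CD14, a monocyte marker, was at most 1.47 CPM in group mean, and ESR1, PGR and PTPRC were not analysed here. Other markers held to be absent or low were higher than CD14. The luminal marker GATA3 averaged 4.69 (E2) to 13.0 CPM (TNFα) by group, and the fibroblast marker PDGFRB 2.82 (E2) to 18.7 CPM (TNFα).

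**Figure D1:**
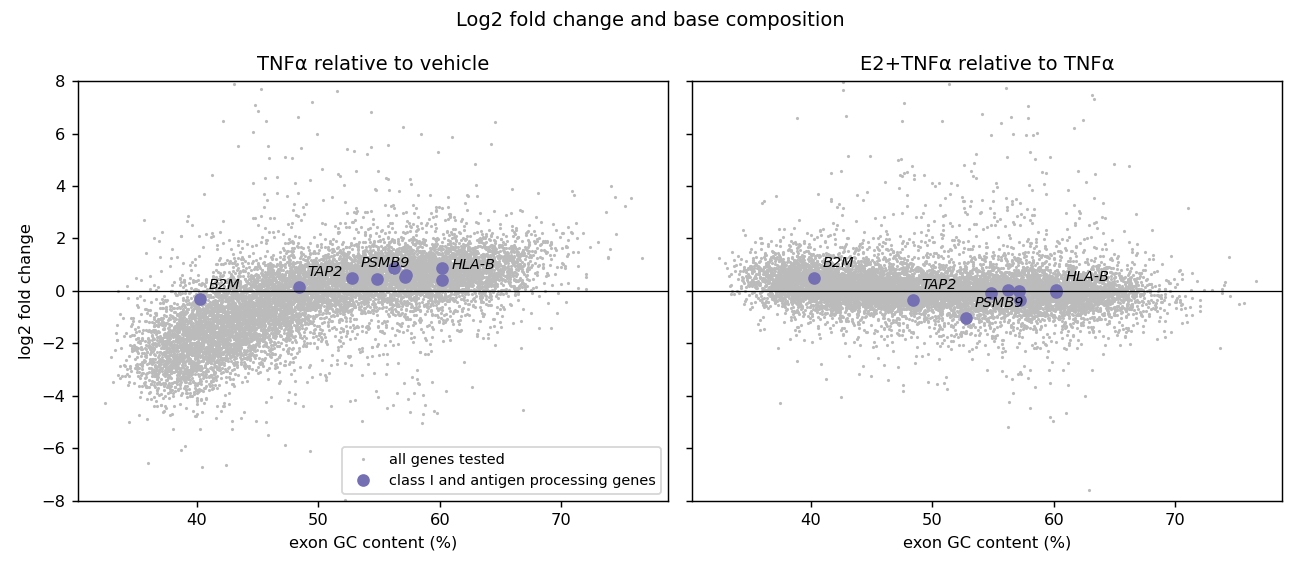
Log2 fold change of each of 11303 genes tested (grey) against exon GC content in percent, for TNFα relative to vehicle on the left and E2+ TNFα relative to TNFα on the right, with the 9 class I and antigen processing genes in purple (16 genes lie outside the plotted range). On the left the cloud climbs with GC content, from B2M at 40.2% to HLA-B at 60.2%. On the right it falls weakly (Spearman correlation -0.21) and PSMB9 lies at -1.03.

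Of the 9 genes, 8 lie in the MHC on chromosome 6 (hg38). HLA-E (30489406 to 30494205, plus strand), HLA-C (31268749 to 31272136, minus) and HLA-B (31353868 to 31357212, minus) lie in the class I region. TAP2 (32821833 to 32838823, minus), PSMB8 (32840717 to 32844935, minus), TAP1 (32845209 to 32853971, minus) and PSMB9 (32854161 to 32859851, plus) lie side by side over 38.0 kb, and TAPBP (33299694 to 33314387, minus) lies further along. B2M is on chromosome 15 (44711487 to 44718159, plus). TAP1 and PSMB9 are transcribed away from each other, with 189 bases between the extents given here. Exons of PSMB8-AS1 overlap those of PSMB8 by 226 bases and of TAP1 by 456 bases on the other strand. The strand setting of the counting is not given in the sources used here, so reads of the overlap cannot be assigned, but PSMB8-AS1 averaged only 2.06 to 4.28 CPM by group.

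Promoter windows from 250 bases before to 50 after the transcription start (RefSeq, GRCh38.p14) were found for 8 of the 9 genes (10 windows). HLA-E had no entry. Windows were searched on both strands for a κB motif, an interferon-stimulated response element (ISRE, the letters GAAA again after 2 bases of any kind), an interferon-gamma activated site (GAS, TTCNNNGAA), an estrogen response element (GGTCA, 3 bases of any kind and its reverse complement) and CCAAT, all of which can overlap. A κB motif was present for 5 genes (HLA-B, HLA-C, TAP1, TAPBP and B2M) and in 11.3% of all 35116 windows. An ISRE was present for 5 genes (TAP1, TAP2, TAPBP, PSMB8 and B2M; 3.57% of all windows), a GAS for 2 (PSMB8 and TAP1; 7.66%), CCAAT for 5 (34.6%), and the estrogen response element for 0 (0.0570%). A gene was counted if any of its windows matched, while the shares are per window. PSMB8 and TAP1 had 2 windows each. The GAS of both and the ISRE of PSMB8 lay only in the second window, which is not shown. The windows of the neighbours TAP1 and PSMB9, which share 13 bases, are shown because the RNA of these genes parted between TNFα and E2+ TNFα, that of HLA-B as the most abundant heavy chain, and that of IRF1 as the factor that moved most. Capitals mark κB, ISRE and GAS matches, and each window is written 5′ to 3′ along its gene's strand. A match is a description of letters and not a bound site.
TAP1, chr6:32853655-32853954, minus strand: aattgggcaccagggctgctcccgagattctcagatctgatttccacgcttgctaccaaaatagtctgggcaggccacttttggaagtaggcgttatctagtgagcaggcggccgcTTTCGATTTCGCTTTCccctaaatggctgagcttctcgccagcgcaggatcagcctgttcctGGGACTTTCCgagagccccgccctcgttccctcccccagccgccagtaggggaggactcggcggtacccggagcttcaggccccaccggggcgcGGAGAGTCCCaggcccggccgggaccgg
PSMB9, chr6:32853942-32854241, plus strand: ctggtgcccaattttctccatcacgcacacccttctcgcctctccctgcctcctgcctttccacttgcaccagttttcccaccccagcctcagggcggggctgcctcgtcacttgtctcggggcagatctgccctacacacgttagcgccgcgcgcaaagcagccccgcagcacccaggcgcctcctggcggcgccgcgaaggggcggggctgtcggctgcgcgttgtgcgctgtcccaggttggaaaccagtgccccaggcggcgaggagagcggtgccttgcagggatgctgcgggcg
HLA-B, chr6:31357130-31357429, minus strand: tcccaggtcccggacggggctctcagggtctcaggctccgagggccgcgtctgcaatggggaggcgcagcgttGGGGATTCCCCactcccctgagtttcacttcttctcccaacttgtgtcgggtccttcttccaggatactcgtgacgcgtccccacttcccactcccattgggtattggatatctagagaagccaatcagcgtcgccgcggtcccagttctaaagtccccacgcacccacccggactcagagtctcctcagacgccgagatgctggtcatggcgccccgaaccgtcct
IRF1, chr5:132490724-132491023, minus strand: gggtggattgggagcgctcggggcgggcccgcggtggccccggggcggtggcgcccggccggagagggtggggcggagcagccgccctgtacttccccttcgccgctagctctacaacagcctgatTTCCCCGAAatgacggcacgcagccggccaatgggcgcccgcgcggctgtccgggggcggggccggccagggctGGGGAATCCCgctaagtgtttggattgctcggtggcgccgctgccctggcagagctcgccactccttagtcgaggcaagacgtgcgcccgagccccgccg
TAP1 held κB letters at -72 and 22 relative to its start and overlapping ISRE letters at -134 and -128, while the PSMB9 window held none of the 3 motifs. The TAP1 matches lie outside the 13 bases shared with the PSMB9 window, so that window could not hold them. HLA-B held overlapping κB matches at -177 and -176, and IRF1 held a κB match at -50 and a GAS at -124.

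All 9 genes were well expressed in every library, and all passed the filter of at least 1 RPKM (CPM divided by exon length in kilobases) in at least 3 libraries that left 11303 genes tested. Their lowest value was 11.7 RPKM (PSMB9), and their mean RPKM lay at the 71.5th (PSMB9) to 98.7th (HLA-B) percentile of genes tested. On this per-length scale HLA-B had the highest mean and PSMB9 the lowest in all 4 groups. HLA-C and HLA-E were level in vehicle, where their libraries overlapped, and in E2 B2M overlapped each of them. The plot of all 9 genes by library shows 2 kinds of spread. PSMB8, TAP2 and HLA-E varied by at most 14.9% (SD over mean) within any group, whereas B2M varied by 43.3% in E2 and PSMB9 by 36.0% in the same group. E2 replicate 2 was the shallowest library, with 7.65 M reads.

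**Figure D2:**
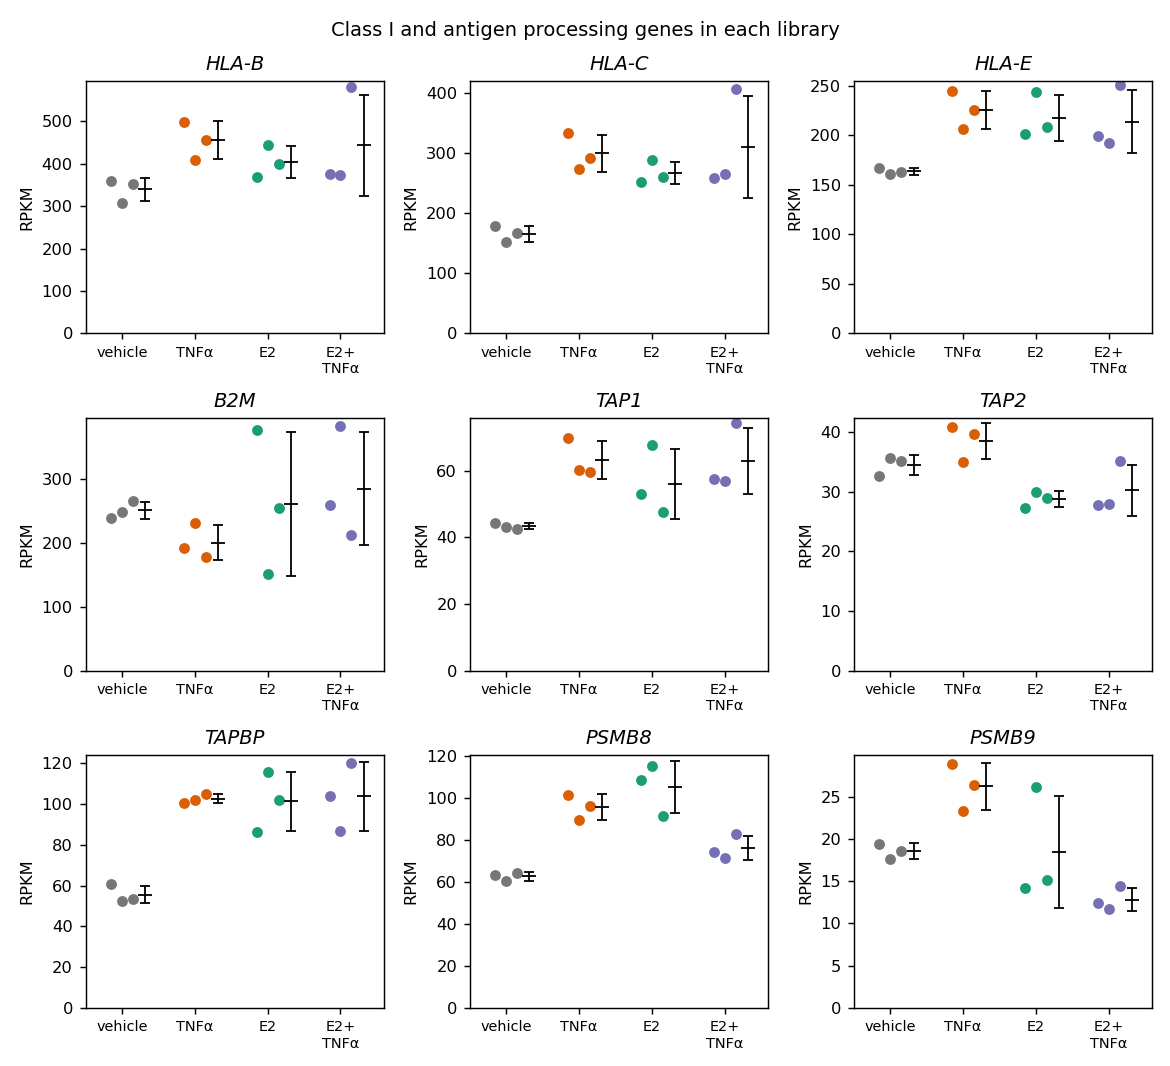
RPKM of each of the 9 genes in each library (points, 3 per group in replicate order) with the group mean and SD (black, n = 3), on linear axes from 0. PSMB9 in E2+ TNFα lies below every TNFα library. TAPBP, like most of the 9 genes, lies higher in all 9 treated libraries than in vehicle (share of all genes not given), and B2M is spread widely in E2 and E2+ TNFα.

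HLA-B and HLA-C encode classical heavy chains. HLA-B was at 359.6, 308 and 351 RPKM in vehicle, 499, 409.5 and 457 in TNFα, 368, 444 and 399 in E2 and 376, 373 and 581 in E2+ TNFα. HLA-C was at 178, 151 and 167 RPKM in vehicle, 333, 273 and 292 in TNFα, 252, 288 and 259.9 in E2 and 258, 265 and 407 in E2+ TNFα. For both, E2+ TNFα replicate 3 was the highest library of all, and the TNFα, E2 and E2+ TNFα groups overlapped. HLA-E encodes a conserved heavy chain that is read by natural killer cell receptors. It was at 167, 161 and 163 RPKM in vehicle, 245, 207 and 226 in TNFα, 201, 244 and 208 in E2 and 199, 192 and 250.5 in E2+ TNFα. The 3 treated groups overlapped for HLA-E as well, and for all 3 heavy chains every treated library was above every vehicle library. The share of all genes for which this held is not given here.

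B2M, the invariant light chain, did not follow the heavy chains. It was at 238, 248 and 265 RPKM in vehicle, 192, 231 and 177 in TNFα, 375, 151 and 254 in E2 and 259, 383 and 212 in E2+ TNFα. The 3 E2 libraries alone spanned 151 RPKM, the lowest of all 12 libraries, to 375, and the only groups without overlap were TNFα and vehicle, with TNFα the lower. With an exon GC content of 40.2%, against 48.4% to 60.2% for the 8 others, B2M is the gene of the 9 most exposed to a trend with base composition.

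TAP1 and TAP2 encode the subunits of 1 transporter, and their levels did not run in parallel. TAP1 was at 44.4, 43.2 and 42.5 RPKM in vehicle, 69.7, 60.1 and 59.5 in TNFα, 52.9, 67.7 and 47.6 in E2 and 57.6, 56.9 and 74.2 in E2+ TNFα. TAP2 was at 32.6, 35.6 and 35.2 RPKM in vehicle, 40.8, 35.0 and 39.6 in TNFα, 27.3, 29.9 and 29.0 in E2 and 27.7, 27.9 and 35.0 in E2+ TNFα. TAP1 was lowest in vehicle, while TAP2 was lowest in E2 and E2+ TNFα, except in E2+ TNFα replicate 3. TAPBP, the tapasin gene, was at 60.6, 52.6 and 53.5 RPKM in vehicle, 101, 102 and 105 in TNFα, 86.3, 116 and 102 in E2 and 104, 86.9 and 120.3 in E2+ TNFα. Its 3 treated groups overlapped each other and none overlapped vehicle. HLA-B, HLA-C, HLA-E, TAP1 and PSMB8 also lay above vehicle without overlap in every treatment. The share of all genes that did not overlap vehicle is not given here, so this cannot be read as particular to these genes. At an adjusted p of at most 0.1 (edgeR), 40.3% of all genes were called higher and 41.6% lower with TNFα relative to vehicle.

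PSMB8 and PSMB9 encode the immunoproteasome subunits, and PSMB9 was the gene of the 9 with the largest change between E2+ TNFα and TNFα. PSMB8 was at 63.3, 60.2 and 64.1 RPKM in vehicle, 102, 89.5 and 96.0 in TNFα, 109, 115 and 91.5 in E2 and 74.1, 71.4 and 82.7 in E2+ TNFα. PSMB9 was at 19.4, 17.6 and 18.6 RPKM in vehicle, 28.9, 23.3 and 26.4 in TNFα, 14.2, 26.1 and 15.1 in E2 and 12.4, 11.7 and 14.4 in E2+ TNFα. For PSMB8 the E2+ TNFα libraries lay between vehicle and the other treatments without overlap. For PSMB9 they lay below all vehicle and TNFα libraries and overlapped E2, in which replicate 2 stood apart at 26.1 RPKM.

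The comparison of E2+ TNFα with TNFα asks how E2 changed cells that all received TNFα. PSMB9, PSMB8 and TAP2 were lower with E2, and the 6 others did not pass the test. PSMB9 changed by -1.03 on the log2 scale (standard error 0.199, adjusted p = 0.00088), which is 2.04-fold lower, PSMB8 one of -0.33 (0.113, adjusted p = 0.0322) and TAP2 one of -0.35 (0.116, adjusted p = 0.0287). The tests are edgeR's quasi-likelihood F test with Benjamini-Hochberg adjustment over all genes tested, in 1 fit of the 4 group means. In bulk RNA, a change in fewer cells and a smaller change in all cells cannot be told apart. The 3 genes make 0 higher and 3 lower of 9 at an adjusted p of at most 0.1, where 24.4% of all genes were called higher and 21.0% lower. Past the study's thresholds of regulation (absolute log2 fold change of at least 1.5, p under 0.05, adjusted p of at most 0.1) were 0 of 9, against 5.56% of all genes. PSMB9 and PSMB8 did not overlap between groups (46.7% of all genes did not), while TAP2 did, through E2+ TNFα replicate 3. The median of the 9 was -0.04 and that of all genes 0.04.

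For PSMB9 the result was the same whichever setting was used. It passed an adjusted p of 0.1 in 17 of 17 alternative settings, with log2 fold changes of -1.13 to -0.94. PSMB8 passed in 16 of 17 and lost the call without TNFα replicate 1 (log2 -0.29, adjusted p = 0.124; range over settings 0.000101 to 0.124). TAP2 passed in 15 of 17 and lost it without TNFα replicate 1 (-0.30, 0.111) and without E2+ TNFα replicate 1 (-0.29, 0.114; range 0.000843 to 0.114). The count of genes called was 1 without TNFα replicate 1 and 5 without E2+ TNFα replicate 3, and shares of all genes are not given for these fits.

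For the heavy chains, TAP1 and tapasin, the intervals were centred near no change. The log2 difference and its 95% interval was -0.04 (-0.38 to 0.30) for HLA-B, 0.05 (-0.29 to 0.38) for HLA-C and -0.08 (-0.34 to 0.19) for HLA-E. TAP1 was at 0.00 (-0.30 to 0.30) and TAPBP at 0.02 (-0.27 to 0.30). Each interval is the range of change that 3 libraries a group left possible, and it does not show that the groups were alike. B2M had the widest interval, at 0.51 (-0.04 to 1.06, adjusted p = 0.135).

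**Figure D3:**
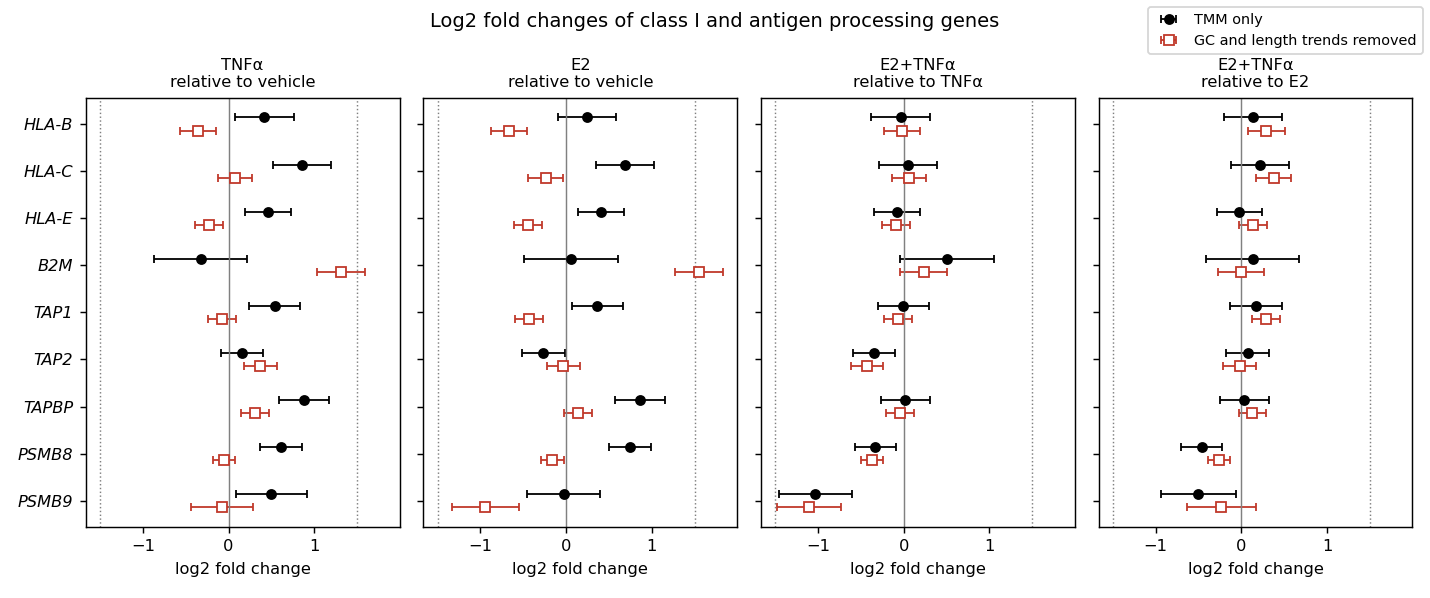
Log2 fold changes of the 9 genes with 95% confidence intervals in 4 comparisons, after TMM scaling (black) and with each library's GC and length trends removed (red, open), with dotted lines at the threshold of 1.5 in either direction. In the 2 left panels, relative to vehicle, B2M moves from -0.33 to 1.31 and from 0.05 to 1.55 when trends are removed and most others move down, while PSMB9 stays at -1.03 and -1.10 in the panel relative to TNFα.

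The neighbours PSMB9 and TAP1 parted in this comparison. The ratio of PSMB9 to TAP1 RPKM within a library was 0.416 ± 0.0278 (SD, n = 3) in TNFα and 0.205 ± 0.0104 in E2+ TNFα, a log2 difference of -1.02 with no overlap. It had been 0.427 ± 0.0177 in vehicle and 0.324 ± 0.0589 in E2. The exact two-sided permutation p was 0.1, the smallest that 3 against 3 allows, so no ratio can reach 0.05. The ratio of TAP1 to TAP2 was 1.64 ± 0.123 in TNFα and 2.08 ± 0.0368 in E2+ TNFα, also without overlap (log2 difference 0.34, exact permutation p = 0.1).

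Set against the standard subunits they replace, both immunoproteasome genes were lowest in the cells that had received E2. PSMB8 to PSMB5 was 0.377 ± 0.0243 in TNFα and 0.249 ± 0.00281 in E2+ TNFα (log2 difference -0.59), and PSMB9 to PSMB6 was 0.0946 ± 0.00675 and 0.0419 ± 0.00175 (log2 difference -1.17), with an exact permutation p of 0.1 for each. In E2 the ratios were 0.244 ± 0.00751 and 0.0417 ± 0.00941, level with E2+ TNFα (exact permutation p = 0.5 and 0.9), and in vehicle they were 0.550 ± 0.00129 and 0.107 ± 0.00334. The third immunoproteasome subunit, PSMB10, set against PSMB7, went otherwise. It was at 0.339 ± 0.0506 in TNFα and 0.317 ± 0.0635 in E2+ TNFα, overlapping (exact permutation p = 0.5), and at 0.172 ± 0.0194 in vehicle and 0.240 ± 0.0160 in E2. These are ratios of RNA and not of assembled proteasomes. The standard subunits changed as well. PSMB5 averaged 114 RPKM in vehicle, 254 in TNFα, 431 in E2 and 305 in E2+ TNFα, and PSMB6 173, 277, 437 and 306. Between vehicle and E2 the mean numerators did not fall after TMM scaling alone, with PSMB8 at 62.6 and 105 RPKM and PSMB9 at 18.5 in each. The PSMB9 mean in E2 rests on replicate 2 (26.1 RPKM), and the other libraries were at 14.2 and 15.1. With GC and length trends removed both were lower in E2 than in vehicle by edgeR (PSMB9 -0.95, adjusted p = 0.000253, and PSMB8 -0.16, adjusted p = 0.0278). Ratios in vehicle also carry the difference of the vehicle libraries that follows GC content.

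**Figure D4:**
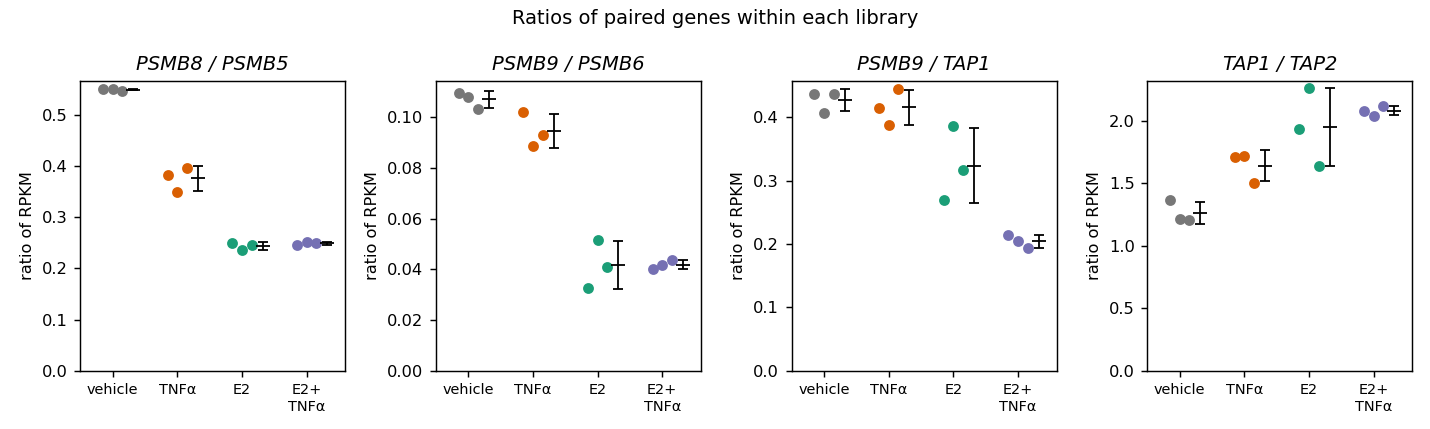
Ratio of RPKM of PSMB8 to PSMB5, PSMB9 to PSMB6, PSMB9 to TAP1 and TAP1 to TAP2 within each library (points, 3 per group) with group mean and SD (black), on linear axes from 0. PSMB8 to PSMB5 falls in steps from 0.550 in vehicle to 0.377 in TNFα and 0.244 and 0.249 in the E2 groups. PSMB5 itself averages 114, 254, 431 and 305 RPKM in vehicle, TNFα, E2 and E2+ TNFα. PSMB9 to TAP1 is lowest in E2+ TNFα.

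The comparison of E2+ TNFα with E2 asks what 3 h of TNFα did in cells already under E2. PSMB8 was the single gene of the 9 called, and it was lower with TNFα (by -0.47 on the log2 scale, standard error 0.114, adjusted p = 0.0453, 1.38-fold), without overlap (9.28% of all genes did not overlap and were lower). At an adjusted p of at most 0.1 that is 0 higher and 1 lower of 9, against 2.65% and 3.34% of all genes, and past the thresholds of regulation 0 of 9, against 0.407%. The call held in 11 of 17 settings. Among the 6 in which it was lost were the fits of only the compared groups (adjusted p = 0.314), with the 9 libraries other than vehicle (0.130), and without E2 replicate 1 (0.138), E2+ TNFα replicate 1 (0.110) or E2+ TNFα replicate 2 (0.174), and without each of these last 3 libraries the count was 0. The count was 2 without E2 replicate 3, and shares of all genes are not given for these fits. PSMB9 had a log2 fold change of -0.50 (-0.94 to -0.06) with an adjusted p of 0.195. The heavy chains lay at 0.14 (-0.20 to 0.48) for HLA-B, 0.22 (-0.12 to 0.55) for HLA-C and -0.02 (-0.29 to 0.24) for HLA-E. TAP1 was at 0.17 (-0.13 to 0.47), TAP2 at 0.07 (-0.17 to 0.32), TAPBP at 0.04 (-0.25 to 0.32) and B2M at 0.13 (-0.42 to 0.68). With GC and length trends removed, HLA-B (0.29, adjusted p = 0.0921), HLA-C (0.38, 0.0288) and TAP1 (0.29, 0.0347) passed as higher with TNFα, and PSMB8 as lower (-0.26, 0.0199), where 4.92% of all genes were called higher and 6.82% lower.

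Relative to vehicle, TNFα alone left 0 of 9 genes past the thresholds of regulation (26.7% of all genes were). For TNFα and for E2 the study reported far fewer regulated genes at these thresholds. Its fit used a batch correction that is not in the counts read here. At an adjusted p of at most 0.1, 7 were higher and 0 lower, against 40.3% and 41.6% of all genes, so that most genes of any kind were called. TAPBP changed most (log2 0.88, standard error 0.135, adjusted p = 2.76e-05), followed by HLA-C (0.86, 0.158, adjusted p = 0.000158), PSMB8 (0.61), TAP1 (0.54), PSMB9 (0.50), HLA-E (0.46) and HLA-B (0.42). TAP2 was at 0.16 (-0.09 to 0.40) and B2M at -0.33 (-0.87 to 0.22). The median of the 9 was 0.50 and that of all genes 0.01. With trends removed the median became -0.05, with 3 genes higher (39.4% of all genes) and 2 lower (36.6%). TAPBP (0.31, adjusted p = 0.00173) and TAP2 (0.37, adjusted p = 0.00151) were then higher along with B2M (1.31, adjusted p = 2.82e-07), HLA-B (-0.36) and HLA-E (-0.22) were lower, and HLA-C (0.08), TAP1 (-0.08), PSMB8 (-0.05) and PSMB9 (-0.08) did not pass. TAPBP was thus the only gene of the 9 called higher with TNFα both with and without trends, and with an unwanted factor estimated from 20 housekeeping genes it was at 0.16 (adjusted p = 0.62).

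E2 alone was compared with the same vehicle libraries. Past the thresholds were 0 of 9 (30.5% of all genes), and at an adjusted p of at most 0.1, 5 were higher (40.1%) and 1 lower (41.7%). TAPBP (0.86, standard error 0.136, adjusted p = 3.16e-05), PSMB8 (0.75, 0.114, adjusted p = 2.36e-05), HLA-C (0.69), HLA-E (0.41) and TAP1 (0.36) were higher and TAP2 was lower (-0.27, adjusted p = 0.0487). HLA-B was at 0.25 (-0.09 to 0.59), B2M at 0.05 (-0.50 to 0.60) and PSMB9 at -0.03 (-0.46 to 0.40). With trends removed, 1 was higher (B2M, 1.55), against 38.4% of all genes, and 6 were lower, against 38.7%, among them PSMB9 (-0.95, adjusted p = 0.000253) and HLA-B (-0.66, adjusted p = 2.04e-05), and the median moved from 0.36 to -0.24. Without vehicle replicate 1 or E2 replicate 1 the change of B2M before removal was negative (-0.02 and -0.36).

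For E2+ TNFα relative to those vehicle libraries, 0 of 9 were past the thresholds (25.1% of all genes), and 6 were higher (39.1%) and 1 lower (41.5%) at an adjusted p of at most 0.1. HLA-C (0.90, standard error 0.158, adjusted p = 0.0001) and TAPBP (0.90, 0.135, adjusted p = 2.48e-05) led, with TAP1 at 0.53, HLA-E and HLA-B at 0.38 and PSMB8 at 0.28. PSMB9 was the gene called lower (-0.53, standard error 0.198, adjusted p = 0.0234). It stayed lower with trends removed (-1.18, adjusted p = 2.09e-05) and with the housekeeping factor (-1.53, adjusted p = 0.00165), while HLA-B, HLA-E, TAP1 and PSMB8 changed sign in both. With trends removed 2 were higher (36.7% of all genes) and 5 lower (39.4%), and the median moved from 0.38 to -0.15. TAP2 was at -0.19 (-0.44 to 0.06) and B2M at 0.18 (-0.37 to 0.73).

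Across the 6 comparisons, the interaction of E2 and TNFα included (0 of 9 genes past the thresholds against 31.8% of all genes, 0 of 9 higher and 5 lower at an adjusted p of at most 0.1 against 39.0% and 37.6%), no gene of the 9 was past the thresholds by edgeR or by DESeq2. With trends removed, 4 interaction terms of the 9 were higher (31.7% of all genes) and 3 lower (35.8%). At an unadjusted p under 0.05 the counts for TNFα, E2 and E2+ TNFα relative to vehicle were 7, 6 and 7 of 9, where 79.5%, 79.5% and 77.6% of all genes passed. They were 3 relative to TNFα (46.3% of all genes), 2 relative to E2 (19.4%) and 5 for the interaction (73.7%). Of 109 pairs of a comparison and a setting, the reported fits among them, 102 had 0 genes past the thresholds and the highest count was 2. The genes past them in the other pairs were B2M, with trends removed (1.55 in both E2 and E2+ TNFα relative to vehicle) or with the housekeeping factor (2.06 and 1.82), and PSMB9 with that factor in E2+ TNFα relative to vehicle. On data simulated for E2 relative to vehicle, the test recovered 98 of 100 genes changed by 2 and 100 of 100 changed by 3 on the log2 scale. The simulated counts held no trend with GC content, unlike the real comparison. Smaller changes, such as those of the 9 genes after TMM scaling, and the other comparisons were not simulated.

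IRF1 is the interferon regulatory factor that binds ISRE letters of class I and TAP1 promoters and is itself an NFκB/p65 target. Before removal of trends it moved more than any of the 9 genes in each comparison. It was at 16.5, 14.9 and 15.8 CPM in vehicle, 385, 356 and 391 in TNFα, 26.3, 34.6 and 28.1 in E2 and 123, 111 and 132 in E2+ TNFα. No groups overlapped. IRF1 was 3.09-fold lower in E2+ TNFα than in TNFα (log2 -1.63, standard error 0.12, adjusted p = 5.33e-08) and 4.15-fold higher than in E2 (log2 2.05, standard error 0.126, adjusted p = 7.12e-08). The fall relative to TNFα was past an adjusted p of 0.1 in 17 of 17 settings, between -1.69 and -1.56. Relative to vehicle it rose by 4.58 (log2) with TNFα and by 2.95 with E2+ TNFα, and with trends removed by 4.15 and 2.50. With E2 alone it rose by 0.90, and by 0.36 with trends removed, where B2M (1.55) and others of the 9 genes moved more.

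NLRC5, the activator that is recruited to class I promoters, was at 44.2, 38.1 and 46.0 CPM in TNFα and 22.9, 22.3 and 22.2 in E2+ TNFα. It was lower in E2+ TNFα (log2 -0.93, standard error 0.169, adjusted p = 0.000518) in 17 of 17 settings, without overlap, and was level with E2 (-0.02, 95% interval -0.39 to 0.35), in which it was at 16.2, 29.0 and 23.7 CPM. In vehicle it was at 33.3, 30.3 and 31.6 CPM, and it was higher in TNFα (log2 0.43, adjusted p = 0.0275; 0.09 and not called with trends removed) and lower in E2 (-0.48, adjusted p = 0.0177; -0.81 with trends removed). RELA, which encodes p65, averaged 181 ± 12.7 CPM in vehicle, 315 ± 14.2 in TNFα, 348 ± 61.4 in E2 and 304 ± 31.8 in E2+ TNFα. It overlapped between E2+ TNFα and TNFα (log2 -0.05, adjusted p = 0.796), and its rise of 0.79 in TNFα over vehicle (adjusted p = 4.93e-05) came to 0.03 with trends removed.

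**Figure D5:**
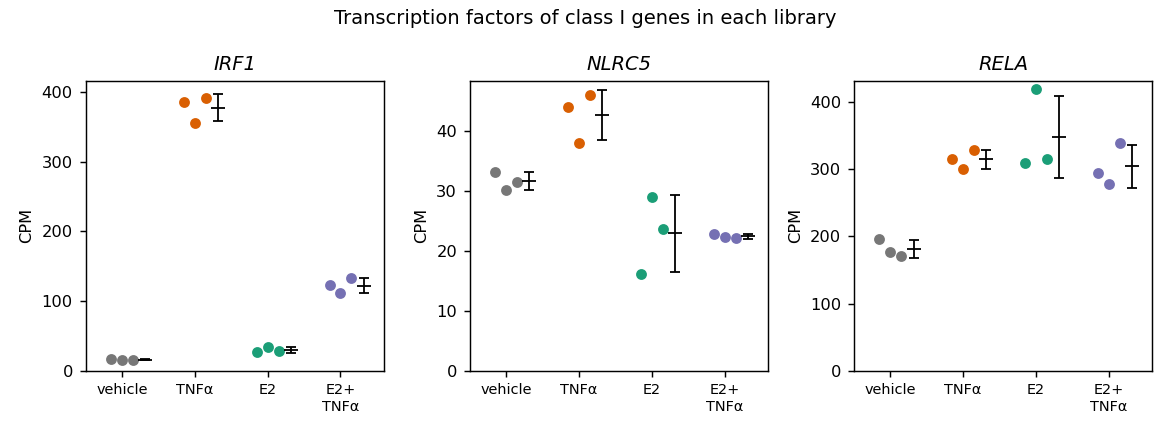
CPM of the transcription factor genes IRF1, NLRC5 and RELA in each library (points, 3 per group) with group mean and SD (black), on linear axes from 0. IRF1 averages 378 CPM in TNFα and 122 in E2+ TNFα, NLRC5 is lower in E2+ TNFα than in TNFα, and RELA overlaps among the treated groups.

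Other genes of the pathway were read from 6 lists, of which HLA-DPB1, HLA-DQA1, HLA-DQB1, HLA-H, IFNB1 and JAK2 were not analysed here. At an adjusted p of at most 0.1, in E2+ TNFα relative to TNFα, 0 of 12 transcription factors of class I genes were higher and 5 were lower, with a median of -0.11, where 24.4% of all genes were higher and 21.0% lower. Beside IRF1 and NLRC5 these were NFKB1 (-0.58), RFXAP (-0.94) and NFYC (-0.29), named after their values were seen. Of 10 genes of interferon receptors and signalling 5 were higher and 1 was lower (median 0.46). The kinase gene JAK1 (log2 1.59, standard error 0.135, adjusted p = 2.94e-07) and the interferon gene IFNL1 (3.41, 0.369, adjusted p = 3.62e-06) were past the thresholds, and IFNL1 rose from 4 to 12 reads a library in TNFα to 42 to 111 in E2+ TNFα. IFNL1 reached 1 RPKM in E2+ TNFα libraries only. It entered the test through the group in which it was high, so its call is tied to that filter. Of 7 other class I and class I-like heavy chains 5 were higher and 0 lower (median 0.40). Of the proteasome list 1 of 6 was higher (PSMB5, 0.26) and 1 lower (PSME1, -0.75; median 0.18). Of 4 peptide loading genes tested 0 were called (0 at an unadjusted p under 0.05, 1 lower by DESeq2; median -0.04), and of 3 class II genes tested 1, CD74, was lower (-1.06; median -0.73).

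With E2+ TNFα relative to E2, 4 of 6 genes of the proteasome list were lower and 0 higher (median -0.51), against 3.34% and 2.65% of all genes, namely PSMB5 (-0.50), PSMB6 (-0.51), PSMB7 (-0.57) and PSME1 (-0.79), named after their values were seen. Their changes were of the size of that of PSMB8 (-0.47), and with trends removed 3 of the 4 passed (6.82% of all genes were then lower). Of the factors 2 were higher, IRF1 and NFKB1 (1.05), and of interferon receptors and signalling 3, among them IFNL1 (2.16, standard error 0.38, adjusted p = 0.00842). Here too IFNL1 entered the test through its E2+ TNFα libraries alone. Of the other heavy chains (7 tested), peptide loading genes (4) and class II genes (3), 0 were called by edgeR or DESeq2, with 0 at an unadjusted p under 0.05.

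Relative to vehicle most genes of these lists were called, as were most of all genes. In the pairs of values that follow, the second is with trends removed. Past the thresholds with TNFα were HLA-G (2.58 and 1.92), PDIA3 (-1.72 and -1.08), PSME2 (-2.74 and -3.39), NFYB (-2.86 and -0.61), CREB1 (-1.77 and 0.90), IRF1 and CD74 (2.37 and 1.69). With E2 they were HLA-G (2.02 and 1.09), PDIA3 (-1.70 and -1.08), PSME2 (-2.47 and -3.39), PSMB5 (1.92 and 1.48), NFYB (-2.67 and -0.49), CREB1 (-2.06 and 0.79), IFNL1 (2.36 and 1.17) and CD74 (1.53 and 0.63). With E2+ TNFα they were HLA-G (2.49 and 1.75), HFE (1.66 and 1.57), PDIA3 (-1.81 and -1.27), PSME2 (-2.45 and -3.17), IRF1, NFYA (-1.502 and -1.01), NFYB (-2.96 and -1.18), CREB1 (-1.84 and 0.40) and IFNL1 (4.52 and 3.62). PSME2, a subunit of the proteasome activator PA28 that interferon induces, and PDIA3, a chaperone of the loading complex, were lower in all 3 treatments with and without trends. CREB1 changed sign with trends removed in all 3. NFYB and CREB1 reached 1 RPKM in vehicle libraries only, and IFNL1 in E2+ TNFα libraries only. Each therefore entered the test through the group in which it was highest. At an adjusted p of at most 0.1, the numbers higher and lower with TNFα, E2 and E2+ TNFα were 8 and 4, 5 and 6, and 5 and 6 of 12 factors. They were 4 and 4, 6 and 3, and 6 and 2 of 10 genes of interferon receptors and signalling. For the other heavy chains they were 5, 6 and 6 higher and 0 lower of 7. They were 0 and 3, 1 and 3, and 1 and 3 of 4 peptide loading genes, 3 and 2, 4 and 1, and 3 and 2 of 6 proteasome genes, and 3, 2 and 3 higher and 0 lower of 3 class II genes.

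Among the 9 libraries other than vehicle, B2M varied against the rest of its pathway. Its log2 CPM had a negative Pearson correlation with each of the 8 other genes (0 of 8 positive, -0.83 with TAPBP to -0.45 with PSMB8), while all 28 pairs without B2M were positive (0.02 to 0.97, the highest between HLA-B and HLA-C). These are descriptions over 9 libraries that share depth and base composition effects. The genes whose log2 CPM over all 12 libraries was most like that of TAP1 were SLC4A2 (Pearson r 0.974, and 0.945 over the 9), IGSF8 (0.972, 0.942) and ALG12 (0.972, 0.939). For HLA-B they were EHBP1L1 (0.951, 0.928), XYLT2 (0.951, 0.933) and GAA (0.951, 0.933). For B2M they were CALM2 (0.976, 0.977), STX12 (0.952, 0.974) and SLC25A12 (0.949, 0.953). No gene of the 9 or of the lists was among them. Exon GC content was 38.9% to 43.4% for the 3 genes like B2M (40.2%), 57.0% to 63.3% for those like TAP1 (57.1%) and 61.4% to 65.0% for those like HLA-B (60.2%), and the part of base composition in these likenesses was not tested.

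HLA genes have haplotype copies that can take reads. Of the 50-base windows of HLA-B exons 2.87% occurred elsewhere on the main chromosomes of hg38 and 76.3% on other contigs, and for HLA-C it was 8.34% and 93.4%. For HLA-E 7.68% and for TAPBP 10.5% occurred elsewhere on the main chromosomes, and for B2M, PSMB8 and PSMB9 0%. On other contigs it was 100% for HLA-E, TAP1, TAPBP, PSMB8 and PSMB9, 99.1% for TAP2 and 92.9% for B2M. Whether the authors' alignment index held the other contigs is not given in the sources used here. The levels of all 9 genes are therefore uncertain, as is the split between the heavy chains.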

How the data were processed

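Stranded mRNA libraries of 12 dishes of MDA-MB-231-ERβ cells were read from 1 table. The counts, as deposited, are whole numbers of reads that the authors mapped to hg38 (TopHat2 2.1.0 in the submitters' notes) and assigned to genes with featureCounts, without normalization. The RUVseq correction named in the study's methods is not in them. Of 12567 entries, 46 were dropped as exact repeats and 70 because another symbol had the same locus and counts. CPM and RPKM were computed after TMM scaling, with summed exon length. Genes that reached 1 RPKM in 3 or more libraries entered edgeR 4.0.16 (R 4.3.3), whose quasi-likelihood F test was run in 1 fit of 4 group means, with Benjamini-Hochberg adjustment. Chi-square per degree of freedom between replicates was 10.2 to 71.1, where counting error alone gives 1, and depth was not the main limit. The test was checked on simulated data.

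The 9 genes and the 6 lists were chosen with earlier results of these data known, and 2 listed genes are not reported here. All 9 genes are named in every comparison. Of the lists, genes past the size threshold are named, up to 3 per direction, list and comparison, with IRF1, NLRC5 and RELA always, and the 3 genes most like TAP1, B2M and HLA-B by Pearson r of log2 CPM. Ratios were compared with exact permutation tests. Alternatives were other scaling and filters, DESeq2 1.42.0, the replicate number as a block, an RUV factor from 20 housekeeping genes, removal of loess trends (span 0.3) with GC content and length, a fit of the compared groups, and each library left out. The fit without vehicle was added after seeing the data.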

Additional observations from a re-analysis of the deposited data

Results flagged for a closer look

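For 5 of the 9 genes and 2 of 3 factors, the change with TNFα differed between cells with and without E2, by the interaction term of the edgeR fit (adjusted p of at most 0.1). The interaction on the log2 scale was -0.64 for HLA-C (adjusted p = 0.0186), -0.49 for HLA-E (0.0226), -0.85 for TAPBP (0.00109), -1.08 for PSMB8 (3.32e-05) and -1.001 for PSMB9 (0.00542). These terms rest on the vehicle libraries, and 37.6% of all genes had a lower and 39.0% a higher term. With GC and length trends removed they were 0.30, 0.35, -0.18, -0.21 and -0.16, of which those of HLA-C (adjusted p = 0.0654), HLA-E (0.01) and PSMB8 (0.0454) passed, the first 2 with the sign turned. Over all 9 genes 4 were then higher and 3 lower, with HLA-B at 0.65 (adjusted p = 0.00092), TAP1 at 0.37 (0.00776), B2M at -1.32 (1.62e-05) and TAP2 at -0.40 (0.0136) also called, none of which was called before.

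Among the factors the interaction was -2.53 for IRF1 (adjusted p = 6.57e-08) and -0.99 for RELA (0.000224). With trends removed it was -2.01 for IRF1 (adjusted p = 4.03e-09) and -0.08 for RELA (0.527). The part of the vehicle libraries in these differences was not tested, since no fit of the interaction is possible without them.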

How the results depend on the processing

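The calls of PSMB9, IRF1 and NLRC5 in E2+ TNFα relative to TNFα held in 17 of 17 alternative settings, and those of PSMB8 and TAP2 in 16 and 15. Changes relative to vehicle depended on the removal of trends with GC content and length and on the RUV factor. The cause was not tested. Scaling by library size only moved the median of all genes to -0.19, -0.38 and -0.26 relative to vehicle, to 0.13 in E2+ TNFα relative to E2 and to 0.31 for the interaction. A copy of a gene under 2 entries was not summed, because no gene of the 9 has more than 1 entry. All 9 genes have at least 172 reads in every library, and depth did not limit their detection.

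Replicate numbers did not pair the samples, with correlations of deviations from group means of -0.54 to 0.52 for 18 pairs of the same number and -0.61 to 0.72 for 36 of different numbers. With the replicate block, the number of the 9 genes called at an adjusted p of at most 0.1 in E2+ TNFα relative to E2 was 0 instead of 1 (PSMB8, adjusted p = 0.114), and the block changed no other call of the 9 genes or the 3 factors. That number was also 0 with the 2 compared groups only and with the 9 libraries without vehicle, and 4 with the RUV factor, with trends removed and with trends removed and the replicate block. With the RUV factor the number called was 1 for TNFα relative to vehicle, 4 for E2+ TNFα relative to vehicle and 2 for the interaction, and with library size only it was 3 for the interaction. Past the thresholds of regulation, 1 gene (B2M) was called in E2 relative to vehicle with the RUV factor, with trends removed and with trends removed and the block. For E2+ TNFα relative to vehicle it was 2 with the RUV factor (B2M and PSMB9) and 1 with trends removed (B2M), with or without the block, and for the interaction it was 1 with the RUV factor (B2M). The shares of all genes called with the RUV factor, the block or library size only are not given here. These counts therefore cannot be read as particular to the 9 genes.

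Signs turned in TNFα relative to vehicle with trends removed, without and with the replicate block, for HLA-B (-0.36 and -0.36), HLA-E (-0.22 and -0.22), B2M (1.31 and 1.31), TAP1 (-0.0786 and -0.0787), PSMB8 (-0.0533 and -0.0532) and PSMB9 (-0.0790 and -0.0745). With the RUV factor they turned for HLA-B (-0.54), HLA-C (-0.0486), HLA-E (-0.24), B2M (1.499), TAP1 (-0.26), TAP2 (-0.33), PSMB9 (-0.60) and NLRC5 (-0.12), and with library size only for TAP2 (-0.0417). In E2 relative to vehicle they turned with trends removed, without and with the block, for HLA-B (-0.66 and -0.67), HLA-C (-0.24 and -0.24), HLA-E (-0.45 and -0.45), TAP1 (-0.44 and -0.44) and PSMB8 (-0.16 and -0.16). With the RUV factor it was HLA-B (-0.84), HLA-C (-0.33), HLA-E (-0.38) and TAP1 (-0.54), with library size only HLA-B (-0.12), B2M (-0.28) and TAP1 (-0.00635), and with at least 10 counts in every library B2M (-0.00815). Relative to vehicle, E2+ TNFα had turned signs with trends removed, without and with the block, for HLA-B (-0.37 and -0.38), HLA-E (-0.32 and -0.32), TAP1 (-0.15 and -0.15) and PSMB8 (-0.43 and -0.43). With the RUV factor it was HLA-B (-0.52), HLA-E (-0.26), TAP1 (-0.20) and PSMB8 (-0.15), and with library size only B2M (-0.0284).

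In E2+ TNFα relative to TNFα the turned signs were all of values close to 0. They were TAPBP (-0.0110 with DESeq2 size factors, -0.0275 with library size only, -0.0110 with DESeq2, -0.0428 with trends removed, -0.0421 with trends removed and the block, -0.00196 with the 2 groups only), HLA-B (0.0226), TAP1 (0.0552) and RELA (0.00615) with the RUV factor, and TAP1 (0.0320) without vehicle. In E2+ TNFα relative to E2 they were HLA-E (0.12 with the RUV factor, 0.13 with trends removed, 0.10 with library size only, 0.13 with trends removed and the block, 0.00350 with the 2 groups only, 0.00840 without vehicle), NLRC5 (0.12 with the RUV factor, 0.0108 with the 2 groups only, 0.0216 without vehicle, 0.12 with library size only), B2M (-0.24 with the RUV factor, -0.00435 with trends removed) and TAP2 (-0.0221 with trends removed, -0.0251 with the block as well). For the interaction they were HLA-B (0.86), HLA-C (0.44), HLA-E (0.36), B2M (-1.74), TAP1 (0.60), TAP2 (0.50), TAPBP (0.0188), PSMB9 (0.36) and NLRC5 (0.24) with the RUV factor. With trends removed, without and with the block, they were HLA-B (0.65 and 0.65), HLA-C (0.30 and 0.30), HLA-E (0.35 and 0.35), B2M (-1.32 and -1.30) and TAP1 (0.37 and 0.37), and with library size only HLA-B (0.0351) and TAP2 (0.24).

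Leaving out 1 library, the number called at an adjusted p of at most 0.1 was 1 to 5 in E2+ TNFα relative to TNFα and 0 to 2 relative to E2. The shares of all genes called in those fits are not given here. Signs turned for B2M (-0.36 to 0.37) and PSMB9 (-0.30 to 0.0837) in E2 relative to vehicle and for B2M (-0.0923 to 0.36) in E2+ TNFα relative to vehicle. In E2+ TNFα relative to TNFα they turned for HLA-B (-0.28 to 0.0729), HLA-C (-0.20 to 0.16), TAP1 (-0.14 to 0.0739), TAPBP (-0.10 to 0.13) and RELA (-0.14 to 0.0108). They turned in E2+ TNFα relative to E2 for HLA-B (-0.11 to 0.25), HLA-C (-0.0277 to 0.33), HLA-E (-0.15 to 0.0480), B2M (-0.15 to 0.50), TAP2 (-0.0468 to 0.13), TAPBP (-0.0851 to 0.15) and NLRC5 (-0.22 to 0.16). Of the other single-gene values, 46 lost and 37 gained a call in the alternatives that kept all libraries of the comparison, as did 12 and 13 in those that left one out.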
